A study of Mus musculus with 12 samples.

Results

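The genes described here are 42 genes of the response to low oxygen and of glycolysis, given as a list of names and looked up in every file. All 42 were found, among 23704 gene names in the files of normal gland and untreated tumor, 23691 in those of treated tumors and 23301 shared by both. RNA-seq had been run on 12 samples in 4 groups of 3. Normal was mammary gland of untreated wild type FVB female mice, and Tumor was mammary tumor of untreated MMTV-PyVT females, in which the mouse mammary tumor virus promoter drives the polyomavirus middle T oncogene in the mammary epithelium. DMSO and C646 were tumors of MMTV-PyVT females injected with the vehicle DMSO or with C646, an inhibitor of the histone acetyltransferase p300, both labelled 1 mg/kg. All mice were 12 weeks old, and the transgenic females were heterozygous. Each Normal replicate pooled abdominal and inguinal glands of 3 mice, each Tumor replicate was a thoracic tumor of 1 mouse, and each treated replicate was the largest tumor of its mouse, so that gland position differed between Normal and Tumor together with genotype.

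Hypoxia-inducible factors (HIF) pair an oxygen-regulated alpha subunit, encoded by Hif1a or Epas1, with the constant partner encoded by Arnt. In the presence of oxygen the prolyl hydroxylases encoded by Egln1 and Egln3 mark the alpha subunit for destruction, so that HIF activity is set largely at the protein level and mRNA of the subunits does not measure it. When oxygen falls, the stabilised factor binds short DNA elements with the core ACGTG or GCGTG and raises genes for glucose uptake, glycolysis, lactate export and the diversion of pyruvate away from mitochondria. p300 is a known coactivator of HIF. Tumors are known for high glycolysis even with oxygen present, while the normal mouse mammary gland is embedded in a pad of fat cells with their own glucose metabolism.

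The core elements were looked up in the RefSeq promoters (build GRCm38.p6, equivalent to mm10), of which the 250 bases before the annotated start were read, using the window listed first where a gene had several. Promoters were listed for 35 of the 42 members. The members not listed were Bnip3l, Lox, Ndrg1, Plod2, Bhlhe40, Stc1 and Epas1. ACGTG or GCGTG, on either strand, lay in 28 of the 35 first windows (80%), against 38.6% of the windows of all 27025 genes and 56.2% of those of 9558 genes tested below in tumor against normal gland. At least 2 copies, with the palindrome CACGTG counted once, lay in 57.1% of the members' windows, against 13.8% and 24.2%. The members' windows were also richer in the dinucleotide CG, with a median of 19 copies against 6 and 16. More than 1 window was listed for 11 of the 35 members, 4163 of all 27025 genes and 1957 of the 9558 genes tested. Over all listed windows, a core lay in at least 1 window of 33 members (94.3%). This held for 41.5% of all genes and 60.7% of the genes tested. Further windows can only add matches, so these shares also depend on the number of windows. Gpi1 and Tpi1 held neither core in any listed window, while Hk1, Aldoa, Pkm, Mxi1 and Hilpda lacked it in the first window and held it in another. A match is a string of letters and not a measured binding site. The 6 windows below belong to genes on which the results turn: genes of oxygen sensing, glucose uptake, glycolysis and secretion, and Pfkfb3, which fell in tumors. Capitals mark ACGTG and GCGTG or their reverse complements, and each window ends at the base before the annotated start.
Egln3 (chr12:54203875-54204124, minus strand): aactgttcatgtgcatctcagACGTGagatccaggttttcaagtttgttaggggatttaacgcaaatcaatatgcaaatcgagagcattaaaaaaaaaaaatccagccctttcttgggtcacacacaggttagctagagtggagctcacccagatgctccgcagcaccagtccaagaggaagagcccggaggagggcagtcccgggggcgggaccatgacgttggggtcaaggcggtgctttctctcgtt
Slc2a1 (chr4:119108495-119108744, plus strand): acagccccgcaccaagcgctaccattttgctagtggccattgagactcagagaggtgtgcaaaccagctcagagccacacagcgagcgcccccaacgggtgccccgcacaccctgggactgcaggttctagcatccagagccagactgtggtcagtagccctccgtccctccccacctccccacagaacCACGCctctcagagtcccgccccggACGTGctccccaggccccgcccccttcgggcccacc
Pgk1 (chrX:106186850-106187099, plus strand): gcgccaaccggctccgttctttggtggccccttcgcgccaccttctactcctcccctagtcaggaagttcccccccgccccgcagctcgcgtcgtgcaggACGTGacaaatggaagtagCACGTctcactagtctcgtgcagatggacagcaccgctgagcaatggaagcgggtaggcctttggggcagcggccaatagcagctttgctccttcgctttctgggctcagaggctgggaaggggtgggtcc
Ldha (chr7:46845554-46845803, plus strand): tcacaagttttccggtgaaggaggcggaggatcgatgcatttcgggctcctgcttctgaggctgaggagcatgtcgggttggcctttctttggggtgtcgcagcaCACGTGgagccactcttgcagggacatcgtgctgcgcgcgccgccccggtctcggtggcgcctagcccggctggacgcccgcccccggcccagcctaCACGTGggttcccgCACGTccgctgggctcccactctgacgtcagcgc
Adm (chr7:110627407-110627656, plus strand): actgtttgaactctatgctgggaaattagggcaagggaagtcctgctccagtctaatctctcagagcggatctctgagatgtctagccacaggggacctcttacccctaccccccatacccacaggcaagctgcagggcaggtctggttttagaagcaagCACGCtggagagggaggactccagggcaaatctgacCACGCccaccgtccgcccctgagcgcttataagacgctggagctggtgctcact
Pfkfb3 (chr2:11553930-11554179, minus strand): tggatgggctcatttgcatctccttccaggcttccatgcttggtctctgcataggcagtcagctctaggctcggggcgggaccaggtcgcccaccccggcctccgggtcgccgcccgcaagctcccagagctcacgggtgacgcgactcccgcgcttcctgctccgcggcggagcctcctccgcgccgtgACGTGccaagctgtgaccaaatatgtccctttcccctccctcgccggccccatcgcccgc
The pair of ACGTG cores in Pgk1 lay at positions -150 and -131 from the start, and the Ldha window held 3, at -145, -48 and -34. Slc2a1 held GCGTG at -61 and ACGTG at -36, Adm held GCGTG at -90 and -54, and the single ACGTG of Egln3 lay at -229. Pfkfb3 had 1 ACGTG as well, at -60.

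All values are FPKM, sequenced fragments scaled to transcript length and to library size, as deposited, so that levels of different genes can be set side by side within a table. Tumor was compared with Normal, and C646 with DMSO, by limma on log2(FPKM + 0.03125), and a gene was called at a Benjamini-Hochberg adjusted p under 0.05 over all genes tested. Fold changes below are on that scale, which understates the change of genes near 0 FPKM, and are given in log2 with the standard error (SE) and the adjusted p of limma. The tables of normal gland and untreated tumor and of treated tumors were made separately and were not tested against each other.

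Marker genes of several cell types differed between the tissues. The summed FPKM of 7 white adipocyte markers was 17604 to 22469 in Normal and 85.9 to 1320 in Tumor, with 7 of 7 called lower, and that of 5 brown adipocyte markers was 1801 to 3976 in Normal and 28.4 to 390.3 in Tumor, with 5 of 5 lower. Endothelial markers fell too, from 144.0 to 168 in Normal to 19.5 to 35.8 in Tumor, with 5 of 5 lower. B cell markers went from 223 to 284 down to 0.445 to 0.816, with 4 of 4 lower and 1 of them at 0 in every Tumor sample, and T cell markers went from 215 to 291 down to 0.721 to 2.1, with 5 of 5 lower. Luminal epithelial markers were 436 to 929 in Normal and 2880.2 to 4074 in Tumor, with 5 of 6 called higher, and skeletal muscle markers were 10.8 to 82.8 in Normal and 1552 to 4390.3 in Tumor, with 7 of 7 higher. The part of these differences in the results below was not tested. Among the treated tumors, muscle markers summed to 0.806, 1.69 and 348.5 FPKM in DMSO replicates 1, 2 and 3 and to 342, 2.0 and 314 in C646 replicates 1, 2 and 3. Basal epithelial and neutrophil markers summed to 652 and 671 in DMSO replicate 3, against at most 119 and 93.0 in the other treated tumors.

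In tumors against normal gland, the 42 genes did not move as a block. Of 41 members tested, 13 were higher, 10 were lower and 18 were not called, with glucose and lactate transporters, Hk1, Pkm and Ldha among the higher and Pfkfb3, Hk2, Bnip3 and Epas1 among the lower. The background was as high: limma called 28.8% of 13031 genes higher and 31.7% lower, and the shares of the members lie near it. With values rescaled to TPM, which moved the median of all genes by over 0.1, the split was 10 members higher and 14 lower, and 2763 against 4881 for all genes in place of 3758 against 4128. The median member differed by -0.01, against -0.02 for all genes tested. The mean over the 42 members of log2(FPKM + 0.03125) was 4.63, 4.78 and 4.86 in Normal replicates 1, 2 and 3 and 4.46, 5.14 and 4.67 in Tumor replicates 1, 2 and 3. The group means were 4.75 ± 0.12 in Normal and 4.76 ± 0.35 in Tumor (SD, n = 3). All Tumor samples lay above all Normal samples for 13 members and below them for 10, where 33.1% and 35.8% of all genes did so.

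**Figure D1:**
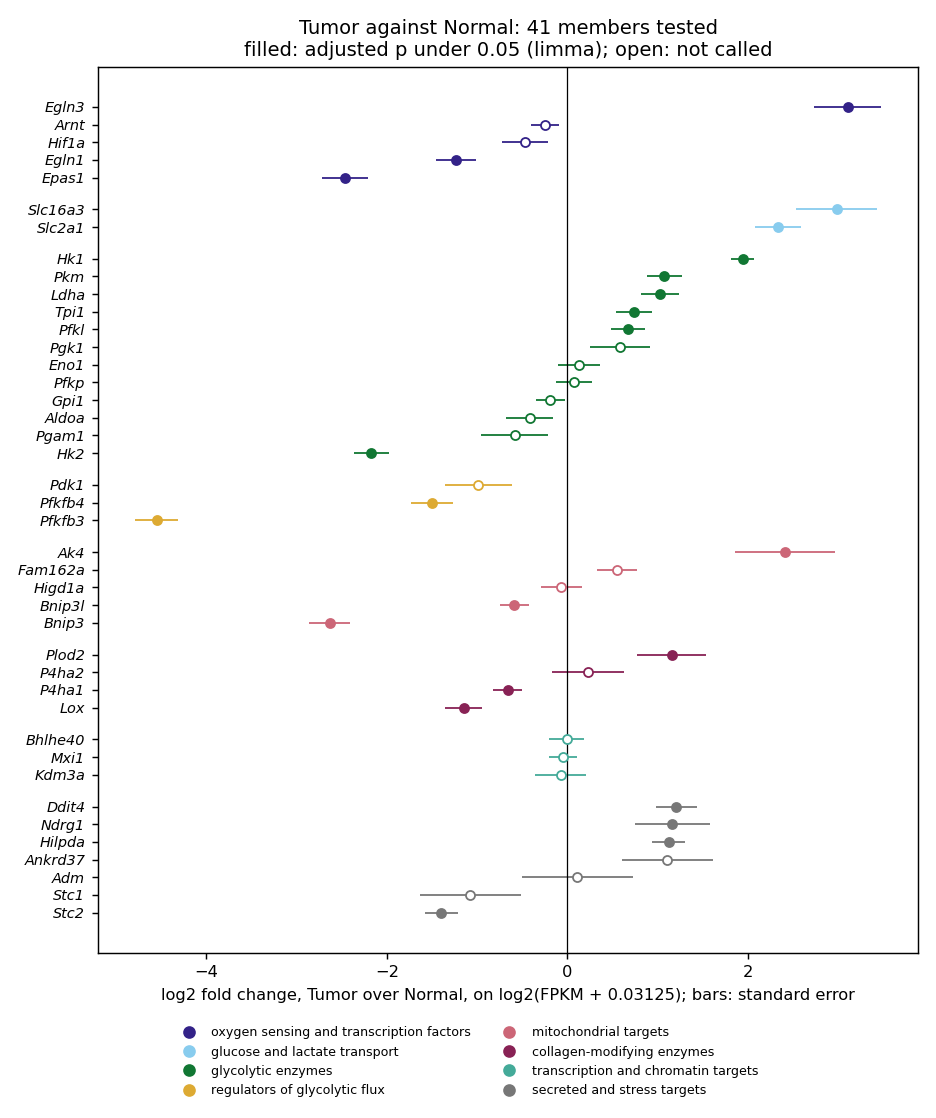
The log2 fold change of Tumor over Normal (x axis) is plotted for the 41 members tested, grouped by role, with bars for the standard error. Filled points were called by limma and open points were not. They run from -4.55 for Pfkfb3 to 3.10 for Egln3, with both directions in most roles.

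Among the oxygen sensors and their factors, Egln3 rose and Egln1 and Epas1 fell in tumors. Egln3, which encodes a prolyl hydroxylase that is itself a HIF target, measured 7.81, 6.51 and 9.17 FPKM in Normal and 35.8, 87.4 and 95.9 FPKM in Tumor. Every Tumor sample was above every Normal sample, with a log2 fold change of 3.10 (SE 0.37, adjusted p = 0.000373), and it was called under all 15 alternatives of processing. Egln1, the main hydroxylase of normal tissue, went the other way, with 40.5, 54.9 and 55.2 FPKM in Normal and 17.4, 28.1 and 19.3 FPKM in Tumor. Its log2 fold change was -1.23 (SE 0.22, adjusted p = 0.00233), and the groups did not overlap.

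Epas1 encodes the alpha subunit typical of endothelium. It stood at 93.7, 104 and 104 FPKM in Normal and at 27.4, 13.5 and 16.2 FPKM in Tumor, a log2 fold change of -2.47 (SE 0.25, adjusted p = 0.000202). The endothelial markers fell in the same samples, as did those of white and brown adipocytes, fibroblasts, B cells and T cells. Their part in the Epas1 values was not tested. In bulk tissue fewer cells of a type and less RNA per cell cannot be told apart. Hif1a, the widely expressed alpha subunit, measured 15.6, 13.7 and 19.2 FPKM in Normal and 8.11, 15.0 and 12.6 FPKM in Tumor, and the groups overlapped (log2 fold change -0.47, SE 0.25, adjusted p = 0.145). Arnt, the constant partner, had 16.1, 15.2 and 16.5 FPKM in Normal and 15.7, 11.3 and 13.4 FPKM in Tumor (log2 fold change -0.25, SE 0.16, adjusted p = 0.202). Neither Hif1a nor Arnt was called.

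Both transporters rose. Slc2a1, the widely expressed glucose importer, was read at 13.8, 18.1 and 14.9 FPKM in Normal and at 62.5, 116.9 and 65.6 FPKM in Tumor, a log2 fold change of 2.34 (SE 0.26, adjusted p = 0.000263). Slc16a3, which exports lactate, rose from 1.35, 1.69 and 0.941 FPKM to 5.26, 17.7 and 12.1 FPKM, a log2 fold change of 2.98 (SE 0.45, adjusted p = 0.00111). Neither gene overlapped between the groups. The 2 transporters together averaged 2.18 ± 0.28 in Normal and 4.84 ± 0.66 in Tumor on the log2 scale (SD, n = 3), the greatest rise in any role.

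Of the 13 glycolytic enzymes, 12 could be tested, and 5 were higher, 1 was lower and 6 were not called. Of all genes, 28.8% were higher and 31.7% lower. The hexokinases, which trap glucose in the cell, moved in opposite directions. Hk1 was tight within groups, with 23.5, 25.7 and 26.7 FPKM in Normal and 91.9, 95.0 and 104.7 FPKM in Tumor, a log2 fold change of 1.94 (SE 0.12, adjusted p = 3.19e-05). Hk2, the inducible isoform of muscle and fat, fell from 25.2, 29.3 and 36.6 FPKM to 6.68, 7.81 and 5.61 FPKM, a log2 fold change of -2.17 (SE 0.19, adjusted p = 0.000109). Both were called under all 15 alternatives, and Hk1 thus went from below Hk2 in Normal to far above it in Tumor. Hk2 fell in the same samples as the adipocyte markers, while the muscle markers rose there. The part of either tissue in the Hk2 values was not tested.

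At the end of the pathway, Pkm, the pyruvate kinase of most tissues, and Ldha, which turns pyruvate into lactate, rose by similar amounts. Pkm had 552, 757 and 648 FPKM in Normal and 1468, 1302 and 1312 FPKM in Tumor, a log2 fold change of 1.07 (SE 0.19, adjusted p = 0.00245). Ldha had 627, 830.0 and 734 FPKM in Normal and 1692, 1538 and 1243 FPKM in Tumor, a log2 fold change of 1.03 (SE 0.21, adjusted p = 0.00443). No Tumor sample reached down to the Normal range for either gene. Among the Tumor samples, both genes were highest in replicate 1, which also had the highest sum of muscle markers. The part of muscle in these values was not tested.

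Pfkl and Tpi1 rose by less. Pfkl, the liver-type phosphofructokinase, went from 92.9, 133 and 120.1 FPKM to 156, 211 and 181 FPKM, a log2 fold change of 0.67 (SE 0.19, adjusted p = 0.0175). Tpi1, triose phosphate isomerase, went from 237, 332 and 260.4 FPKM to 408, 558 and 420.1 FPKM, a log2 fold change of 0.74 (SE 0.20, adjusted p = 0.0153). These calls were less firm than those of Hk1 and Pkm: Pfkl lost its call under 5 of 15 alternatives and Tpi1 under 3.

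Aldoa, the aldolase of muscle and most tissues, had the highest mean of all members in both groups and was not called, with 1791, 2405 and 2169 FPKM in Normal and 2082, 1437 and 1305 FPKM in Tumor (log2 fold change -0.42). Tumor replicate 1, the highest Tumor sample for Aldoa, also had the highest sum of muscle markers, whose part in the Aldoa values was not tested. Pgk1, Pgam1, Gpi1 and Pfkp overlapped between the groups and had log2 fold changes of 0.58, -0.58, -0.19 and 0.08. Eno1 differed by 0.13 and is uncertain, since its near-identical copy Eno1b was listed at up to 166 FPKM in the same samples and reads could be split between them. Gapdh was listed at 0.0875, 0 and 0.194 FPKM in Normal and at 0, 0.0791 and 0 FPKM in Tumor. As every cell uses this enzyme, only the listed values are given and no fold was computed.

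Of the 3 regulators of flux, Pfkfb3 and Pfkfb4 fell and Pdk1 was not called. Pfkfb3 makes the sugar phosphate that drives phosphofructokinase, and it showed the change of largest size among the 41 members tested. It was listed at 80.3, 101.6 and 109 FPKM in Normal and at 3.30, 5.76 and 3.58 FPKM in Tumor, a log2 fold change of -4.55 (SE 0.24, adjusted p = 2.23e-05). Its paralog Pfkfb4 went from 4.04, 4.41 and 4.29 FPKM to 1.91, 1.35 and 1.25 FPKM, a log2 fold change of -1.50 (SE 0.23, adjusted p = 0.00115). Pdk1, a kinase that shuts pyruvate out of the citric acid cycle, read 10.4, 12.8 and 16.6 FPKM in Normal and 3.97, 11.1 and 6.36 FPKM in Tumor. Tumor replicate 2 lay inside the Normal range for Pdk1, and its log2 fold change of -0.99 (SE 0.37) had an adjusted p of 0.0513. Without that library it was 0.00677, the lowest of the 15 alternatives, which reached up to 0.161.

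**Figure D2:**
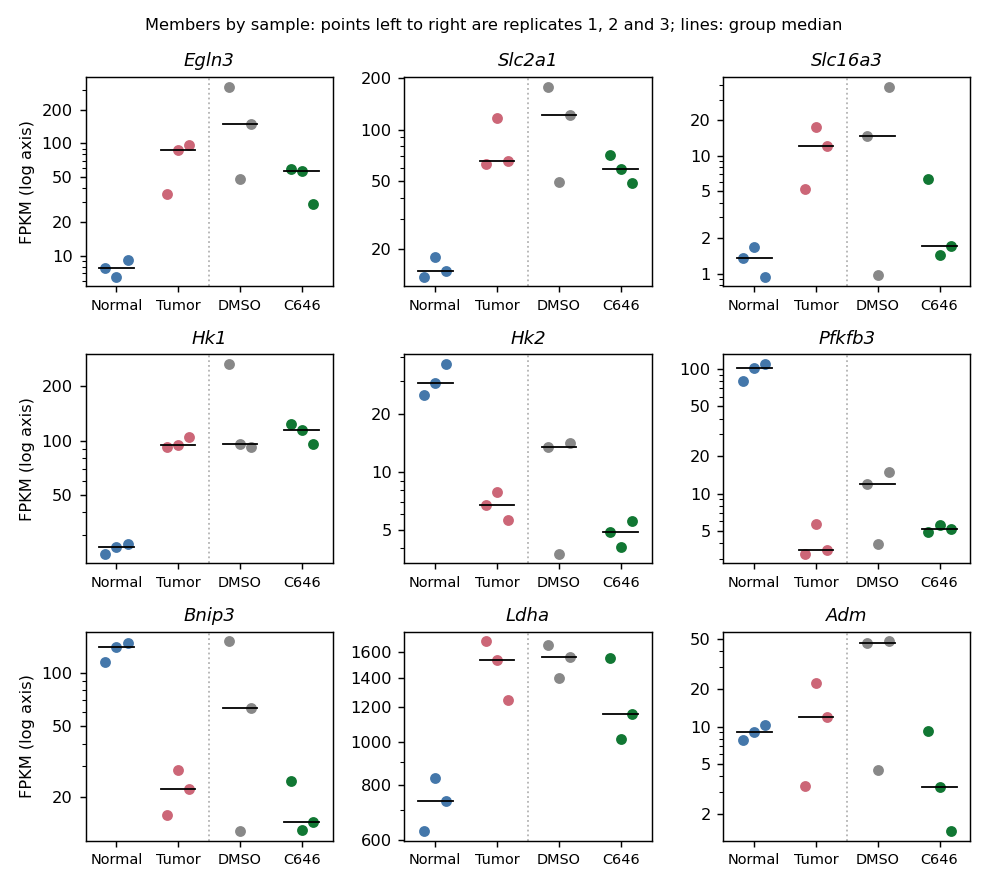
FPKM on a log axis is plotted for 9 members in all 12 samples, with replicates 1, 2 and 3 from left to right and a line at each group's median. The dotted line parts tables that were made separately. Egln3, Slc2a1, Slc16a3, Hk1 and Ldha lie higher in Tumor than in Normal, Hk2, Pfkfb3 and Bnip3 lie lower, and DMSO replicate 2 never exceeds the highest C646 tumor.

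Mitochondrial members split. Bnip3 and Bnip3l encode receptors for the removal of mitochondria, and both fell. Bnip3 was at 114.9, 140.8 and 147 FPKM in Normal and at 15.9, 28.2 and 22.1 FPKM in Tumor, a log2 fold change of -2.63 (SE 0.22, adjusted p = 9.33e-05). Bnip3l changed by -0.59 (adjusted p = 0.0168), a call lost without Normal replicate 2 or 3. Ak4, a mitochondrial adenylate kinase, rose from 1.00, 0.900 and 1.41 FPKM to 2.53, 12.9 and 6.29 FPKM, a log2 fold change of 2.41 (SE 0.55, adjusted p = 0.00721). Its Tumor samples did not overlap the Normal ones, although they spread over 5.09-fold among themselves. Fam162a was above Normal in every Tumor sample but was not called (0.54, adjusted p = 0.0668), and Higd1a differed by -0.07.

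Among enzymes that modify collagen, Lox and P4ha1 fell and Plod2 rose. Lox, which crosslinks collagen, went from 7.05, 8.80 and 10.8 FPKM to 4.41, 3.99 and 3.43 FPKM, a log2 fold change of -1.15 (SE 0.21, adjusted p = 0.00239), with no overlap. P4ha1, a prolyl hydroxylase of collagen, changed by -0.66 (adjusted p = 0.00888), and fibroblast markers fell from 1378 to 1538 FPKM in Normal to 236 to 512 in Tumor, with 4 of 5 called lower. Plod2, a lysyl hydroxylase, had 6.48, 2.95 and 3.93 FPKM in Normal and 6.19, 9.28 and 14.6 FPKM in Tumor. Its groups overlapped, its log2 fold change was 1.15 (SE 0.39, adjusted p = 0.0340), and it lost its call under 7 of 15 alternatives, while P4ha2 was not called (0.23).

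The transcription and chromatin members Bhlhe40, Kdm3a and Mxi1 lay close to no difference, with log2 fold changes of -0.01, -0.07 and -0.05. Of the 7 secreted and stress members, Ddit4, Hilpda and Ndrg1 rose and Stc2 fell. Ddit4, an inhibitor of mTOR signalling, went from 60.3, 90.3 and 58.8 FPKM to 129.9, 197 and 153 FPKM, a log2 fold change of 1.20 (SE 0.23, adjusted p = 0.00304). Hilpda, a lipid droplet protein, went from 10.5, 11.1 and 11.8 FPKM to 30.4, 24.1 and 19.5 FPKM, a log2 fold change of 1.12 (SE 0.18, adjusted p = 0.00155). Neither overlapped between the groups, and both were called under all 15 alternatives.

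Ndrg1, a hypoxia- and stress-responsive gene, was highest in Tumor replicate 2, with 43.4, 37.0 and 45.6 FPKM in Normal and 68.5, 194.6 and 61.7 FPKM in Tumor. Its log2 fold change was 1.16 (SE 0.41, adjusted p = 0.0430), and 9 of 15 alternatives lost the call, among them each that left out a Normal replicate. Without Tumor replicate 2 the call was kept at a smaller log2 fold change of 0.64 (adjusted p = 0.0127, with a range of 0.0127 to 0.118 over the alternatives), and all Tumor samples lay above all Normal samples. Stc2, a secreted glycoprotein, changed by -1.40 (adjusted p = 0.000569). Adm, the vessel-dilating peptide adrenomedullin, read 7.82, 9.01 and 10.3 FPKM in Normal and 3.35, 22.5 and 12.0 FPKM in Tumor. Its Tumor samples lay on both sides of Normal (log2 fold change 0.11, SE 0.62, adjusted p = 0.887), and Ankrd37 and Stc1 were not called either (1.11 and -1.08).

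Among the untreated tumors, replicate 2 was most often the highest. Tumor replicate 2 was the highest of the 3 for 27 of 41 members, against 29.9% of all genes, and Tumor replicate 1 was the lowest for 26, against 29.6%. The difference between Tumor replicates 1 and 2 was greatest for Adm, Ak4 and Stc1, at 6.70-, 5.09- and 4.31-fold. Highest and lowest Tumor sample were more than 2-fold apart for 14 of 41 members, against 20.4% of all genes, while in Normal this held for 2 members, Ankrd37 and Plod2, against 7.28%. Left without Tumor replicate 1, 17 members were called higher and 11 lower with a median of 0.18, and without Tumor replicate 2, 11 were higher and 13 lower with a median of -0.17. Of all 13031 genes, 3615 were called higher and 4175 lower without Tumor replicate 1, with a median of -0.03. Without Tumor replicate 2 these were 3683 and 4023, with a median of -0.01.

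Genes around these pathways, taken from lists and not as members, also went both ways. Of 23 other HIF pathway and hypoxia genes tested, 8 were higher and 8 lower in Tumor. These counts lie near the shares of all genes, 28.8% higher and 31.7% lower. The carbonic anhydrase genes Car12 and Car9 rose by 6.0 and 4.43 on the log2 scale and Cited2, an inhibitor of HIF binding to p300, by 2.57. Gbe1, Angptl4 and Loxl2 fell, with log2 fold changes of -3.27, -2.97 and -2.46, where Loxl2 shared its row with a microRNA gene. Vegfa, the main angiogenic growth factor and a HIF target, read 56.4, 73.6 and 73.4 FPKM in Normal and 12.4, 34.5 and 26.4 FPKM in Tumor, a log2 fold change of -1.59 (SE 0.36, adjusted p = 0.00689). All its Tumor samples lay below all Normal samples.

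For the counts in this paragraph, the shares of all genes were 28.8% higher and 31.7% lower. Of 14 other glycolytic isoforms and glucose transporters tested, 5 were higher and 6 lower. The muscle isoforms Pgam2 and Eno3 rose by 4.62 and 1.92 beside the muscle markers, and Aldoc by 3.23. The insulin-responsive transporter Slc2a4, Pfkfb1 and Slc2a3 fell, with log2 fold changes of -4.35, -3.53 and -4.47. Of 12 genes of pyruvate entry into mitochondria and its control, 11 were lower and 1 was higher. The lower ones held the carrier gene Mpc1 and Dlat, a subunit of pyruvate dehydrogenase, with log2 fold changes of -3.38 and -2.67, but also Pdk4 and Pdk2, kinases that inhibit that enzyme, with -5.08 and -1.28. Another of these kinases, Pdk3, was the one higher, with 1.04. Of 7 genes of the pentose phosphate pathway, G6pdx and Tkt were lower (-1.32 and -1.91, Tkt in a row shared with a microRNA gene) and none was higher. Of 5 genes of gluconeogenesis tested, Pck1, Pcx and Fbp2 were lower and Fbp1 and Pck2 were higher, with a log2 fold change of -8.36 for Pck1, which fat tissue is known to express. The adipocyte markers fell in the same samples, and their part in these counts was not tested.

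C646 was set against DMSO to ask whether inhibition of p300 changed these genes in tumors. No gene was called in either direction, so that percent called was 0 over 12083 genes, with 384 genes at an unadjusted p under 0.05, and no member was called. The fitted differences of the members nevertheless lay mostly on the same side: 39 of 42 were below 0, where 53.1% of all genes were. The median member differed by -0.79, against -0.01 for all genes. The members were read in the same 6 tumors and are not independent of each other. The exceptions were Lox, Epas1 and Arnt, fitted at 0.61, 0.27 and 0.03.

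**Figure D3:**
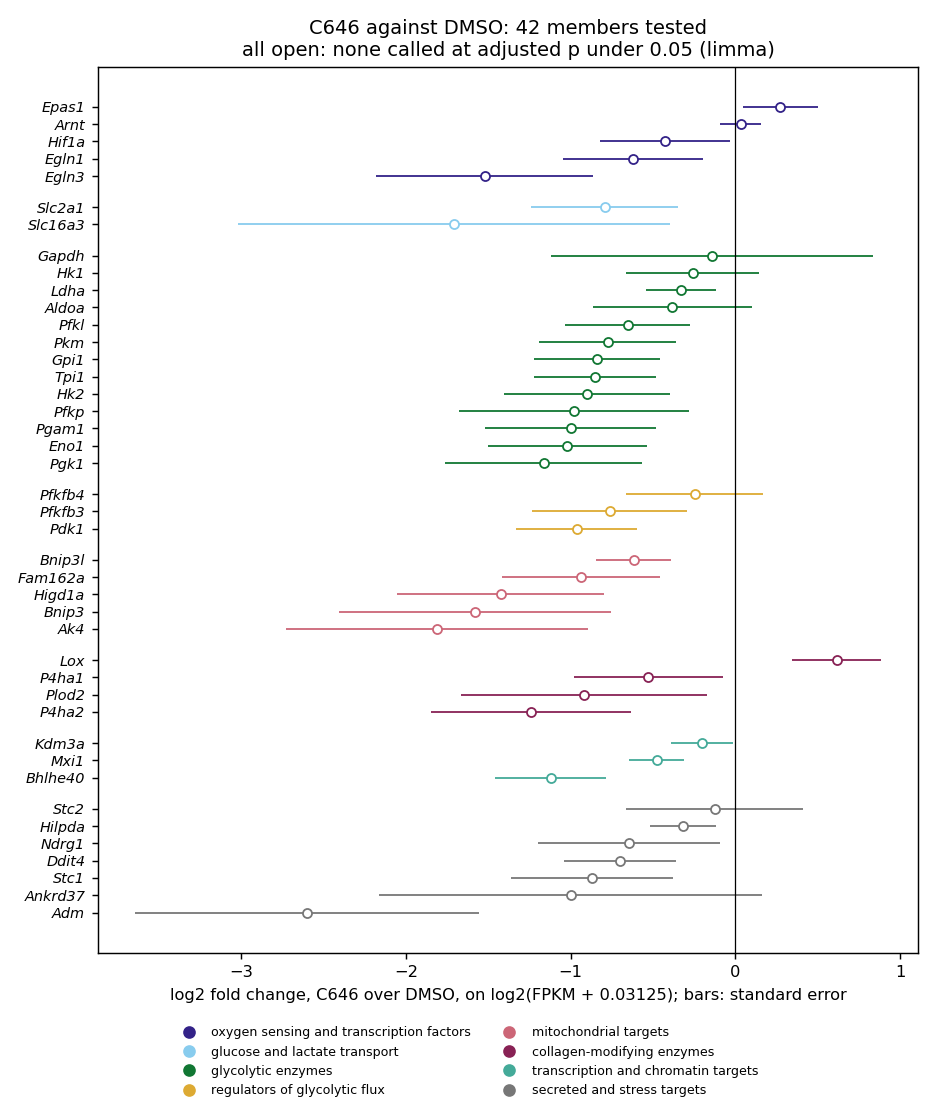
The log2 fold change of C646 over DMSO (x axis) is plotted for all 42 members by role, with bars for the standard error; all points are open because limma called none. Apart from Lox, Epas1 and Arnt the points lie below 0, from -2.60 for Adm to -0.13 for Stc2.

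The level of the set in single tumors did not separate the groups. The mean over the 42 members of log2(FPKM + 0.03125) was 6.06, 4.44 and 5.73 in DMSO replicates 1, 2 and 3 and 4.95, 4.52 and 4.43 in C646 replicates 1, 2 and 3. The group means were 5.41 ± 0.86 in DMSO and 4.63 ± 0.28 in C646 (SD, n = 3), a difference of -0.78 that was smaller than the SD of the DMSO tumors. DMSO replicates 1 and 3 were high and DMSO replicate 2 lay among the C646 tumors. Over all genes tested, Pearson's r of log2 values between DMSO replicate 2 and the C646 tumors was 0.949 to 0.961. With DMSO replicates 1 and 3 it was lower, at 0.923 and 0.911. This was not particular to DMSO replicate 2. For DMSO replicate 3, r was 0.932 to 0.939 with the C646 tumors and 0.887 and 0.911 with DMSO replicates 1 and 2. DMSO replicates 1 and 3 had the lowest correlation of any treated pair, 0.887.

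**Figure D4:**
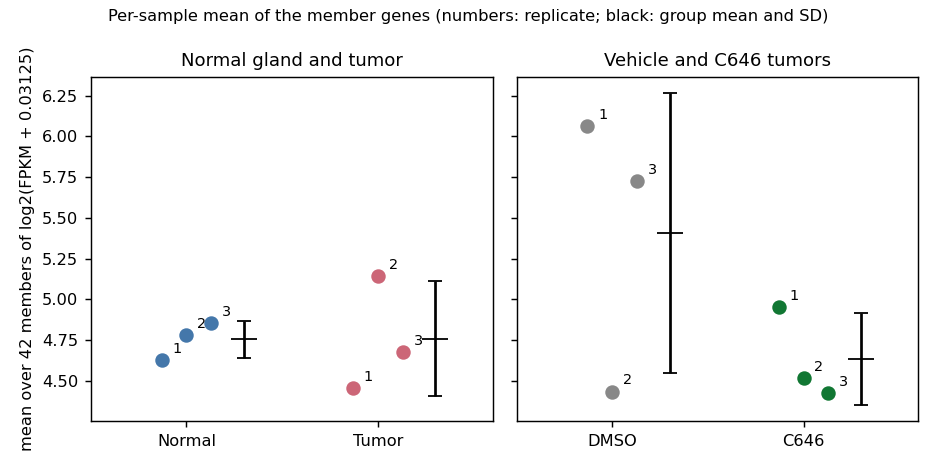
The mean over 42 members of log2(FPKM + 0.03125) is plotted for each sample, with the replicate number beside each point and the group mean and SD in black. Normal and Tumor have nearly equal means, while DMSO replicates 1 and 3, at 6.06 and 5.73, stand above DMSO replicate 2, at 4.44, and above all C646 tumors.

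Gene by gene the same 2 tumors stood apart. DMSO replicate 1 was above all C646 tumors for 37 of 42 members and DMSO replicate 3 for 32, against 34.4% of all genes for each. DMSO replicate 2 was above them for 5 members, against 23.7% of all genes, within their range for 22 and below them for 15. Shares of all genes within and below that range were not computed. DMSO replicate 2 was the lowest DMSO tumor for 34 of 42 members, against 28.2% of all genes. The median SD of the members among DMSO tumors was 0.92 on the log2 scale, against 0.28 over all genes, and among C646 tumors it was 0.29 against 0.18. DMSO tumors were more than 2-fold apart for 33 of 42 members, against 21.5% of all genes, and C646 tumors for 8, against 8.98%.

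**Figure D5:**
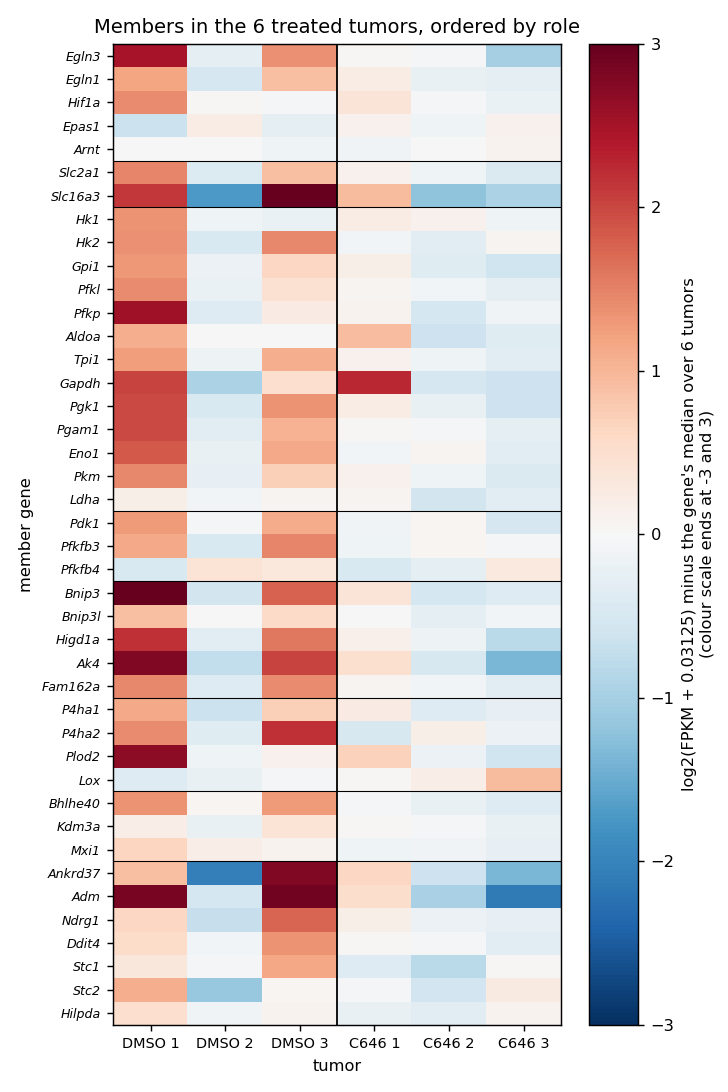
The colour gives log2(FPKM + 0.03125) of each member (rows, by role) in each of the 6 treated tumors (columns) minus that gene's median over the 6, with red above and blue below. The columns of DMSO replicates 1 and 3 are red for most members, and that of DMSO replicate 2 resembles the C646 columns.

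The counts depended on single libraries. With all 6 tumors, 5 members had an unadjusted p under 0.05, Adm, Bhlhe40, Pdk1, Bnip3l and Mxi1, all lower in C646, against 1.78% of all genes lower at that threshold. Without DMSO replicate 2 there were 29 such members, the median was -1.24, and 11 genes were called lower, none of them a member. Over all 12083 genes, 1006 then had an unadjusted p under 0.05, against 384 with all 6 tumors. The members' median was -0.47 without DMSO replicate 1, with 1 such member and 306 of all genes. It was -0.59 without DMSO replicate 3, with 2 such members and 600 of all genes. It stayed between -0.91 and -0.64 when a C646 tumor was left out, with 4, 2 and 1 such members without C646 replicates 1, 2 and 3. In these fits 267, 227 and 161 of all genes had an unadjusted p under 0.05.

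The members farthest below the rest were Adm, Ak4 and Slc16a3. Adm measured 46.3, 4.48 and 48.2 FPKM in DMSO and 9.26, 3.28 and 1.45 FPKM in C646, a log2 fold change of -2.60 (SE 1.04, adjusted p = 0.99). DMSO replicate 2 lay within the C646 range. Slc16a3 measured 14.6, 0.981 and 38.8 FPKM in DMSO and 6.41, 1.43 and 1.73 FPKM in C646 (log2 fold change -1.71, SE 1.31, adjusted p = 0.99). Its DMSO tumors spread over 39.6-fold, the widest DMSO range of the 42 members, and included both the highest and the lowest treated tumor. Ak4 measured 26.8, 2.33 and 15.9 FPKM in DMSO and 5.40, 2.80 and 1.495 FPKM in C646 (log2 fold change -1.81, SE 0.91, adjusted p = 0.99).

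Egln3, Bnip3 and Slc2a1 were likewise highest in DMSO replicates 1 and 3. Egln3 had 320.3, 48.2 and 150.1 FPKM in DMSO and 59.4, 56.4 and 29.1 FPKM in C646, a log2 fold change of -1.52 (SE 0.66, adjusted p = 0.99). Bnip3 had 150.7, 12.8 and 63.7 FPKM in DMSO and 24.6, 13.0 and 14.4 FPKM in C646 (log2 fold change -1.58, SE 0.83, adjusted p = 0.99). Slc2a1 had 178, 49.2 and 121 FPKM in DMSO and 71.2, 59.1 and 48.4 FPKM in C646 (log2 fold change -0.79, SE 0.45, adjusted p = 0.99). In each, DMSO replicates 1 and 3 exceeded all C646 tumors and DMSO replicate 2 did not. Pgk1, the phosphoglycerate kinase gene whose promoter held a pair of ACGTG cores, showed it again with 790.7, 145 and 507 FPKM in DMSO and 231, 172 and 129.7 FPKM in C646.

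Egln1, Hk2, Pdk1 and Pfkfb3 had the same shape at lower levels. Egln1 read 44.3, 13.7 and 36.3 FPKM in DMSO and 22.6, 16.7 and 16.1 FPKM in C646 (log2 fold change -0.62, SE 0.43, adjusted p = 0.99). Hk2 read 13.5, 3.73 and 14.1 FPKM in DMSO and 4.84, 4.07 and 5.51 FPKM in C646 (-0.90, SE 0.50, adjusted p = 0.99). Pdk1 read 13.6, 5.43 and 12.3 FPKM in DMSO and 5.24, 5.83 and 3.95 FPKM in C646 (-0.96, SE 0.37, adjusted p = 0.99). Pfkfb3 read 12.0, 3.97 and 15.1 FPKM in DMSO and 4.96, 5.64 and 5.21 FPKM in C646 (-0.76, SE 0.47, adjusted p = 0.99). DMSO replicate 2 was the lowest of the 6 treated tumors for Egln1, Hk2 and Pfkfb3 and lay within the C646 range for Pdk1.

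Some members departed from the set. Hk1 was high in DMSO replicate 1 alone, with 265, 95.8 and 91.7 FPKM in DMSO and 123, 115.0 and 96.0 FPKM in C646 (log2 fold change -0.26, SE 0.40, adjusted p = 0.99), and its sign turned to 0.24 without that library. Hif1a had the same shape, with 67.9, 26.2 and 24.7 FPKM in DMSO and 33.1, 24.3 and 22.3 FPKM in C646 (-0.43, SE 0.40, adjusted p = 0.99), and turned to 0.042 without DMSO replicate 1. Ldha varied little among DMSO tumors, with 1657, 1399.9 and 1561 FPKM in DMSO and 1552, 1013 and 1157 FPKM in C646 (-0.33, SE 0.21, adjusted p = 0.99). The DMSO range of Ldha was 1.18-fold, against 5.46-fold for Pgk1, while its C646 range was 1.53-fold against 1.78-fold. Ldha was the exception here, since every other glycolytic enzyme had a DMSO range between 2.16-fold for Aldoa and 7.90-fold for Gapdh. Pfkfb4 was low throughout, with 0.989, 1.82 and 1.71 FPKM in DMSO and 0.979, 1.11 and 1.66 FPKM in C646 (-0.25, SE 0.41, adjusted p = 0.99).

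Lox was the member that lay farthest above the rest, with 4.21, 4.74 and 5.40 FPKM in DMSO and 5.67, 6.37 and 10.8 FPKM in C646 (log2 fold change 0.61, SE 0.27, adjusted p = 0.99). All C646 tumors were above all DMSO tumors, as for 4.04% of all genes. Fibroblast markers summed to 208 to 447 FPKM in DMSO and 330 to 683 in C646, with C646 replicate 3 the highest for both the markers and Lox, and their part in the difference was not tested. Epas1 had 10.3, 18.9 and 13.3 FPKM in DMSO and 17.5, 14.9 and 17.6 FPKM in C646 (0.27, SE 0.23, adjusted p = 0.99), so that DMSO replicate 1, high for most members, was its lowest tumor. Arnt had 18.4, 18.2 and 16.7 FPKM in DMSO and 16.8, 18.0 and 19.6 FPKM in C646 (0.03, SE 0.12, adjusted p = 0.995).

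C646 lay below DMSO without overlap for 3 members, where 4.52% of all genes did so: Bhlhe40, Bnip3l and Mxi1, named here because their values did not overlap. Bhlhe40, a transcriptional repressor, had 88.3, 36.4 and 84.4 FPKM in DMSO and 33.3, 29.6 and 26.7 FPKM in C646, a log2 fold change of -1.12 (SE 0.34, adjusted p = 0.99). Mxi1, an antagonist of Myc, differed by -0.48 and Bnip3l by -0.62. Even for these, the gap between the lowest DMSO and the highest C646 tumor was small, as with 31.2 and 30.4 FPKM for Bnip3l. Gapdh was listed at 16.7, 2.11 and 5.82 FPKM in DMSO and at 19.9, 2.89 and 2.66 FPKM in C646, below every other member among the glycolytic enzymes but Hk2, which it exceeded in replicate 1 of both groups.

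The remaining 20 members had fitted log2 fold changes from -1.43 for Higd1a, a mitochondrial protein, to -0.13 for Stc2, with an adjusted p of 0.99 for each but Stc2, which had 0.996. Among them, Aldoa and Pfkp, a phosphofructokinase, were high in DMSO replicate 1, with 3367 and 178 FPKM there. Aldoa was also high in C646 replicate 1, at 3006 FPKM. Muscle markers summed to 0.806 FPKM in DMSO replicate 1 and to 342 in C646 replicate 1. Ankrd37 and Ndrg1 were highest in DMSO replicate 3, with 30.3 and 282 FPKM.

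By role, the difference of the per-sample means between C646 and DMSO ran from -1.27 for the mitochondrial members and -1.25 for the transporters to -0.45 for oxygen sensing and the factors. The SD of the DMSO tumors was 1.28, 1.78 and 0.49 for these roles, larger than the difference in each, as it was in 6 of the 8 roles. The exceptions were the regulators of flux, with a difference of -0.66 and a DMSO SD of 0.51, and the transcription and chromatin members, with -0.60 and 0.38. The 13 glycolytic enzymes averaged 8.63, 6.82 and 7.76 in DMSO replicates 1, 2 and 3 and 7.44, 6.86 and 6.78 in C646 replicates 1, 2 and 3 on the log2 scale. Eno1 and its copy Eno1b moved alike, with 1517, 364 and 937 FPKM in DMSO for Eno1 and 470.0, 111 and 309 FPKM for Eno1b.

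None of the other pathway genes was called either. Of 24 other HIF pathway and hypoxia genes tested, 20 were fitted below 0, against 53.1% of all genes. Also fitted below 0 were 7 of 13 other glycolytic isoforms and transporters and 6 of 11 genes of pyruvate entry. The same held for 5 of 7 genes of the pentose phosphate pathway and 1 of 4 of gluconeogenesis. Vegfa followed the members, with 183, 19.6 and 103.8 FPKM in DMSO and 43.8, 23.6 and 22.4 FPKM in C646, a log2 fold change of -1.33 (SE 0.78, adjusted p = 0.99). DMSO replicate 2 was below all C646 tumors for Vegfa. White adipocyte markers were low in both groups but summed to 10.1 to 47.8 FPKM in DMSO and 60.1 to 309 in C646 without overlap, and red cell markers were at 326, 77.7 and 153 FPKM in DMSO replicates 1, 2 and 3 and at 104 to 223 in C646. Their part in the members' values was not tested.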

How the data were processed

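RNA of 20 mg tissue was selected for poly-A tails, and libraries without strand information were sequenced by the authors as paired reads. Per the labels and the study's methods, the authors trimmed adaptors, mapped reads to mm10 with TopHat2 2.1.1 and computed FPKM per gene with Cufflinks 2.2.1. They deposited 1 table of FPKM per sample, with 26220 rows in Normal and Tumor and 24304 in DMSO and C646. FPKM is scaled to gene length and library size, so a few abundant genes shift all others, and read numbers are not in the files. FPKM summed to 526855 to 783719 per sample, and 11853 to 12792 names reached 1 FPKM. From the steps of the lowest values, depth ratios between replicates were 0.763 to 1.53 in pairs with a clear step, so fold changes of members near 1 FPKM are the least precise.

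Groups and replicate numbers came from the sample titles. In Normal and Tumor, 1837 rows without a gene name, holding 3.41% to 4.56% of FPKM, were left out. Rows that repeat a name were added up, which among the members concerned Epas1, Plod2 and, in the treated tumors, Bhlhe40. Genes with at least 1 FPKM in 3 of the 6 samples compared entered a two-sided test on log2(FPKM + 0.03125) by limma (version 3.58.1, R version 4.3.3, moderated variances with a trend on mean level), with Benjamini-Hochberg adjustment over all genes tested. No count test was possible. Members were counted over all members tested, and the median, per-sample means and counts over members carry no test. The script was tested on simulated data. Marker and pathway lists, members and tests were chosen with earlier results of these data known. Full values are given for the oxygen sensors, factors, transporters, hexokinases, flux regulators, Ldha, Bnip3, Lox and Vegfa, for the 8 called members of largest change, for members called against the direction of the median and for the 5 farthest from it. Promoters came from RefSeq tables. Python 3.11.15 with numpy 2.4.6, pandas 2.3.3 and matplotlib 3.10.9 was used for the rest.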

Additional observations from a re-analysis of the deposited data

How the results depend on the processing

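The alternatives were pseudocounts of 1 and 0.25 FPKM, no filter on low values, rescaling to TPM, median-ratio scaling, quantile normalization, no variance trend, all 4 groups in the same fit, a replicate block and leaving out each replicate. For Tumor against Normal the members called higher numbered 9 to 13 and those called lower 9 to 14 with all samples, and 10 to 17 and 9 to 13 with a replicate left out. Of all genes, 2763 to 4351 were called higher and 3638 to 4881 lower with all samples. With a replicate left out, these were 3087 to 3683 and 3467 to 4175. The fit of all 4 groups gave 9 and 9 members, and 3775 and 4034 of 12754 genes. Rescaling to TPM moved the median of all genes from -0.02 to -0.27, with 2763 higher and 4881 lower (36.1% of calls higher, against 47.7%), and gave 10 members higher and 14 lower. Quantile normalization moved it to 0.12, with 4351 higher and 3638 lower. Calls were lost by Ndrg1 (9 of 15 alternatives), Plod2 (7), Pfkl (5), Tpi1 (3), Bnip3l (2) and P4ha1 (1), and 10 members not called gained a call under 1 to 5 alternatives, Pdk1 most often. The replicate block gave 13 members higher and 11 lower, losing Ndrg1 and Plod2 and gaining Pdk1, Ankrd37 and Fam162a, with 3439 higher and 3827 lower of all genes. For C646 against DMSO the block gave 0 members called, with 16 members and 430 of 12083 genes at an unadjusted p under 0.05. Deviations from the group means showed no pairing by number for Normal with Tumor (r of -0.04, -0.10 and 0.01). For DMSO with C646, r was 0.17, 0.07 and 0.11 for equal numbers, against -0.23 to 0.14 for unequal ones. DMSO replicates 1 and 3 went best with their own number and DMSO replicate 2 with C646 replicate 3. The study's methods state no pairs, and the numbers were not taken as pairs. For C646 against DMSO no alternative called a member. The members' median ran from -1.24 to -0.47 with a replicate left out, the fitted change of Hk1 from -0.53 to 0.24 and of Hif1a from -0.69 to 0.042, both turning without DMSO replicate 1. Arnt ran from -0.025 without C646 replicate 3 to 0.085 without C646 replicate 1, and was -0.012 without DMSO replicate 3. Leaving out Gapdh, an alternative chosen after seeing the data, changed the difference of per-sample means from 0.00 to 0.03 for Tumor and from -0.78 to -0.79 for C646. Groups of 3 limit all of these results.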
